A study of Mus musculus with 12 samples.

Results

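The 9 genes described here act in meiotic recombination and were followed through an anti-ORF1p immunoprecipitation from mouse testis: Spo11, Mei1, Mei4, Prdm9, Dmc1, Hfm1, Msh4, Msh5 and Mlh3. They were chosen by name, as the gene rows carrying these symbols, and all 9 were found among the 20981 genes of each table. Earlier results of these data were known when the members and the lists below were chosen. ORF1p is the RNA-binding protein encoded by LINE-1 retrotransposons. All 12 libraries came from testes of C57BL/6 mice of 3 months with the genotype Mael-/-, so there was no wild-type group, and the loss of Mael, which represses retrotransposons in the male germ line, is shared by every value below. The TOTAL group is the testis extract after addition of EDTA to 10 mM, the INPUT group is the pool of fractions 5 to 8 of a 10-50% sucrose gradient of that extract, the IP group is the RNA recovered from INPUT with an antibody to LINE-1 ORF1p, and the BO group (beads only) is the RNA recovered from INPUT by beads carrying no antibody. Each group had 3 libraries. The gene tables give 1 mean per group, not a value per library, so each gene value is the authors' mean, has no spread between libraries, and was not tested. Whether same-group libraries came from different animals is not given in the sources used here.

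In meiotic prophase, recombination starts with programmed double-strand breaks in DNA, made by the topoisomerase-like enzyme SPO11 at hotspots that the histone methyltransferase PRDM9 selects. MEI1 and MEI4 are accessory proteins that SPO11 needs to cut, and DMC1 is the meiosis-specific recombinase that pairs the broken ends with the homologous chromosome. The MutS homologs MSH4 and MSH5 act as a heterodimer which, with the helicase HFM1, stabilizes recombination intermediates that become crossovers, and MLH3 acts in resolving them. These genes are known for expression in spermatocytes, the cells in which Mael-/- mice accumulate LINE-1 RNA and ORF1p.

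The 3 members with the highest ratio of IP to TOTAL were Msh4, Spo11 and Hfm1, and the 2 with the lowest Mlh3 and Mei4. Each is shown here by the first 60 bases of the coding sequence in its longest coding transcript. Values are given per gene, so these bases mark the gene and not the transcript behind a value. They were read from GENCODE M21 transcripts of the mm10 build, 5′ to 3′ on the coding strand, with the start codon in capitals.
Msh4: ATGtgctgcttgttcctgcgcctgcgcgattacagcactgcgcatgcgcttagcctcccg
Spo11: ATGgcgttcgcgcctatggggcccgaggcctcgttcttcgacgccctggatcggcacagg
Hfm1: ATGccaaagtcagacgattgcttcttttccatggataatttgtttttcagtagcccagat
Mlh3: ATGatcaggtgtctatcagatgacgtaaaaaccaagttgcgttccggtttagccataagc
Mei4: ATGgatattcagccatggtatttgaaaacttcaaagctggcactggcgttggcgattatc
The Msh4 stretch lies at chr3:153905925-153905984 on the minus strand, and the Spo11 stretch at chr2:172979894-172979953 on the plus strand. The Hfm1 stretch lies at chr5:106922824-106922883 on the minus strand. The Mlh3 stretch is at chr12:85269351-85269410 on the minus strand, and the Mei4 stretch at chr9:81890136-81890195 on the plus strand. Each is exonic and coding.

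LINE-1 RNA was compared first. L1Md_A, a young LINE-1 subfamily, was measured per library in a separate table of upper-quartile normalized counts and ran from 56029 to 95645 in IP, against 14131 to 15633 in BO, 17934 to 27258 in INPUT and 18284 to 26309 in TOTAL. For L1Md_T the ranges were 61962 to 111455 in IP, 19423 to 20911 in BO, 19585 to 30493 in INPUT and 21765 to 31895 in TOTAL. The IP libraries overlapped no other group in either subfamily. How many other repeat subfamilies were likewise without overlap was not counted, so this is not shown to be particular to L1Md_A and L1Md_T. Reads recovered on repeats numbered 1384904 to 2003193 per library in IP, 1712212 to 3512997 in BO, 3045169 to 3880641 in INPUT and 6021800 to 7282171 in TOTAL. The median SD between the 3 libraries of a group, over the 752 subfamilies of repeats averaging 100 or more, was 0.116 to 0.14 on the log2 scale, and the 95th percentile was 0.371 to 0.53. These are repeats, not genes, and serve only as a measure of how far libraries of a group lay apart. Mael had means of 0.65 in TOTAL and 0.502 in BO, and was listed at 0 in INPUT and in IP.

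In all 3 comparisons most of the recombination genes had higher means in IP. Of the 9 members, 8 were more than 2-fold higher in IP than in BO (a log2 ratio above 1), 8 were so against INPUT, and 8 against TOTAL. Mlh3 was the exception against BO and INPUT, and Mei4 against TOTAL. No member was lower in IP than in any other group in the authors' scaling. Scaled to the sum of gene means, 7 members passed against BO, 4 against INPUT and 7 against TOTAL, and Mei4 stood at -0.04 against TOTAL. Each ratio is log2 of the IP mean plus 1 over the other group's mean plus 1.

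The background differed between the comparisons. Among all 13634 genes with a mean of at least 10 in the IP and BO table, 43.9% passed the same log2 ratio of 1 upward and 11.2% passed -1 downward, and the median gene stood at 0.81. Centred on that median, 18.3% passed upward and 24.1% downward, and 7 members passed upward. For IP against INPUT, 20.5% of 14400 genes passed upward and 14.6% downward, with a median of 0.15. For IP against TOTAL, 20.4% of 14666 genes passed upward and 26.2% downward, with a median of -0.03. Scaled to the sum of gene means, the shares were 9.05% upward and 28.3% downward against INPUT, and 9.73% and 38.1% against TOTAL. The members' median log2 ratio was 2.36 against BO, 1.50 against INPUT and 2.20 against TOTAL, which lies 1.55, 1.35 and 2.23 above the median gene. The 3 comparisons share the same IP libraries, so they are not independent of each other.

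**Figure D1:**
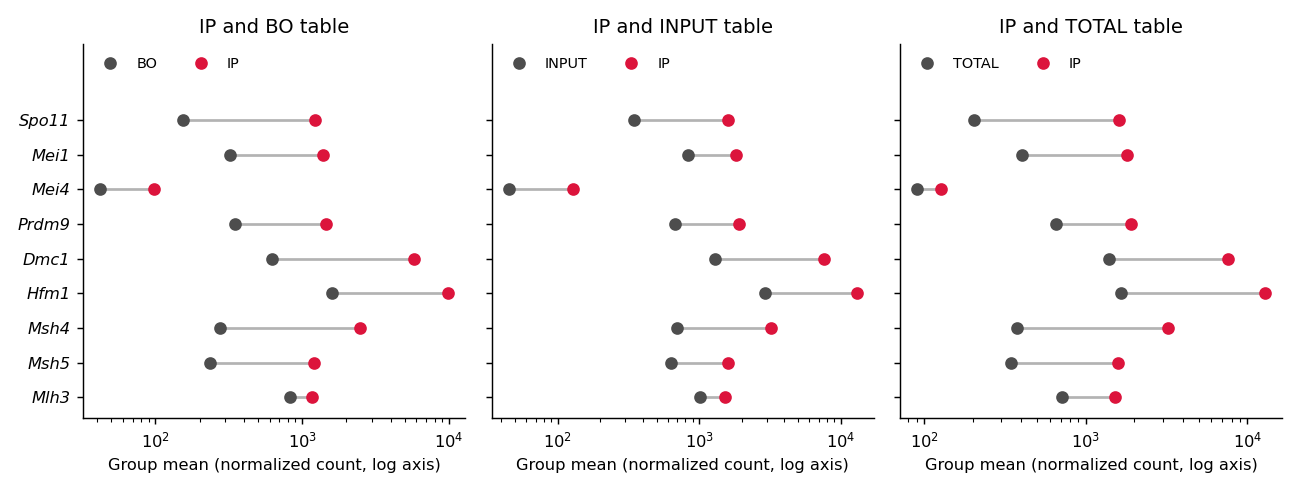
Group means of the 9 recombination genes (authors' normalized counts, log axis), 1 panel for each table, with IP in red and the other group in grey. The IP point lies to the right for every gene in every panel, and Mlh3 has the shortest line against BO and INPUT, Mei4 against TOTAL. Each table was scaled separately, so levels compare within a panel only.

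The break-forming genes act first in the pathway, and against TOTAL their log2 ratios ran from 0.48 for Mei4 to 2.97 for Spo11. Spo11 (chr2:172977700-172993576, plus strand) had a mean of 154 in BO and 1224 in IP, 348 in INPUT and 1606 in IP, and 202 in TOTAL and 1596 in IP. In each table the IP mean was thus the higher, by 7.90-fold over BO, 4.60-fold over INPUT and 7.85-fold over TOTAL. The Spo11 log2 ratio of 2.97 to TOTAL ranked 51 among 14666 genes. Behind the Spo11 mean in BO were between 306 and 645 reads over the 3 libraries, and behind that in IP between 3790 and 4918, which limits the counting error of the log2 ratio to at most 0.086. Such limits cover counting error only, since reads made by PCR are not independent molecules, and they leave out the spread between libraries.

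Mei1 (chr15:82069996-82126814, plus strand) had means of 324 in BO, 830 in INPUT and 405 in TOTAL, against 1387, 1817 and 1812 in IP in the respective tables. Its log2 ratios were 2.09 to BO, 1.13 to INPUT and 2.16 to TOTAL. The value against INPUT was close to the fold limit, and was 0.98 when the ratios were centred on the median gene. Mei4 (chr9:81863670-82206007, plus strand) was the least abundant member. Its means were 42.2 in BO and 97.3 in IP, 45.4 in INPUT and 128 in IP, and 91.0 in TOTAL and 127 in IP. The Mei4 log2 ratios were 1.19 to BO, 1.47 to INPUT and 0.48 to TOTAL, with counting errors of at most 0.178, 0.148 and 0.12. Centred on the median gene, the Mei4 ratio to BO was 0.38, inside the fold limit. Spo11 exceeded Mei4 in log2 ratio by 1.79 against BO, 0.73 against INPUT and 2.50 against TOTAL, each more than the counting error, which was at most 0.198, 0.156 and 0.136.

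Prdm9, the hotspot-selecting gene (chr17:15543079-15564354, minus strand), had means of 348 in BO and 1463 in IP, 677 in INPUT and 1917 in IP, and 653 in TOTAL and 1912 in IP. The IP mean was the higher in each table, by 4.20-fold, 2.83-fold and 2.92-fold. The Prdm9 log2 ratios of 1.50 to INPUT and 1.55 to TOTAL were nearly the same.

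Dmc1, the recombinase gene (chr15:79561497-79605109, minus strand), had the highest ratio of the members to INPUT. Against BO the log2 ratios of Dmc1 at 3.22 and Msh4 at 3.17 were too close to order. Their counting errors were at most 0.042 and 0.064. The Dmc1 mean was 623 in BO and 5795 in IP, a fold of 9.29. It was 1295 in INPUT and 7599 in IP, a fold of 5.87, and 1386 in TOTAL and 7559 in IP, a fold of 5.45. Dmc1 ranked 164 of 13634 genes by its ratio to BO, 97 of 14400 by that to INPUT and 227 of 14666 by that to TOTAL.

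Among the crossover genes, Hfm1 (chr5:106840192-106926321, minus strand), which encodes a DNA helicase, was the most abundant member in IP by total reads. Its mean was 1586 in BO and 9861 in IP, 2911 in INPUT and 12921 in IP, and 1656 in TOTAL and 12875 in IP. That is 6.21-fold, 4.44-fold and 7.77-fold higher in IP. Msh4 (chr3:153857149-153906138, minus strand) had means of 273 in BO and 2468 in IP, 695 in INPUT and 3236 in IP, and 376 in TOTAL and 3219 in IP. Its log2 ratio of 3.09 to TOTAL was the highest value of the members and ranked 32 among 14666 genes. Spo11 at 2.97 was too close to it to order, with counting errors of at most 0.046 for Msh4 and 0.063 for Spo11. The annotation places 10 other genes inside 6 of the members, 3 of them in Mei4. The snoRNA gene Gm24395 in Msh4, on the other strand, is the 1 whose exons overlap those of the member, and whether the gene counts used strand is not given in the sources used here.

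Msh5 (chr17:35028605-35046745, minus strand), whose product pairs with MSH4, stood lower than Msh4. Its means were 236 in BO and 1212 in IP, 630 in INPUT and 1589 in IP, and 344 in TOTAL and 1584 in IP. The Msh5 log2 ratios were 2.36, 1.33 and 2.20 against BO, INPUT and TOTAL. Msh4 exceeded Msh5 in log2 ratio by 0.81 against BO, 0.88 against INPUT and 0.90 against TOTAL, with a counting error of at most 0.096, 0.053 and 0.068. The difference was thus larger than counting error in each table, while its size against the spread between libraries was not tested.

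Mlh3, the resolution gene (chr12:85234520-85270599, minus strand), had means of 827 in BO and 1162 in IP, 1010 in INPUT and 1522 in IP, and 716 in TOTAL and 1519 in IP. Its log2 ratios were 0.49 to BO, 0.59 to INPUT and 1.08 to TOTAL. Against BO it lay below the median gene by 0.32, the only member to do so in any comparison, and it ranked 8106 of 13634 genes. Against TOTAL, Mlh3 was just past the fold limit and Mei4 was not, and scaled to the sum of gene means Mlh3 stood at 0.57, inside the limit.

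**Figure D2:**
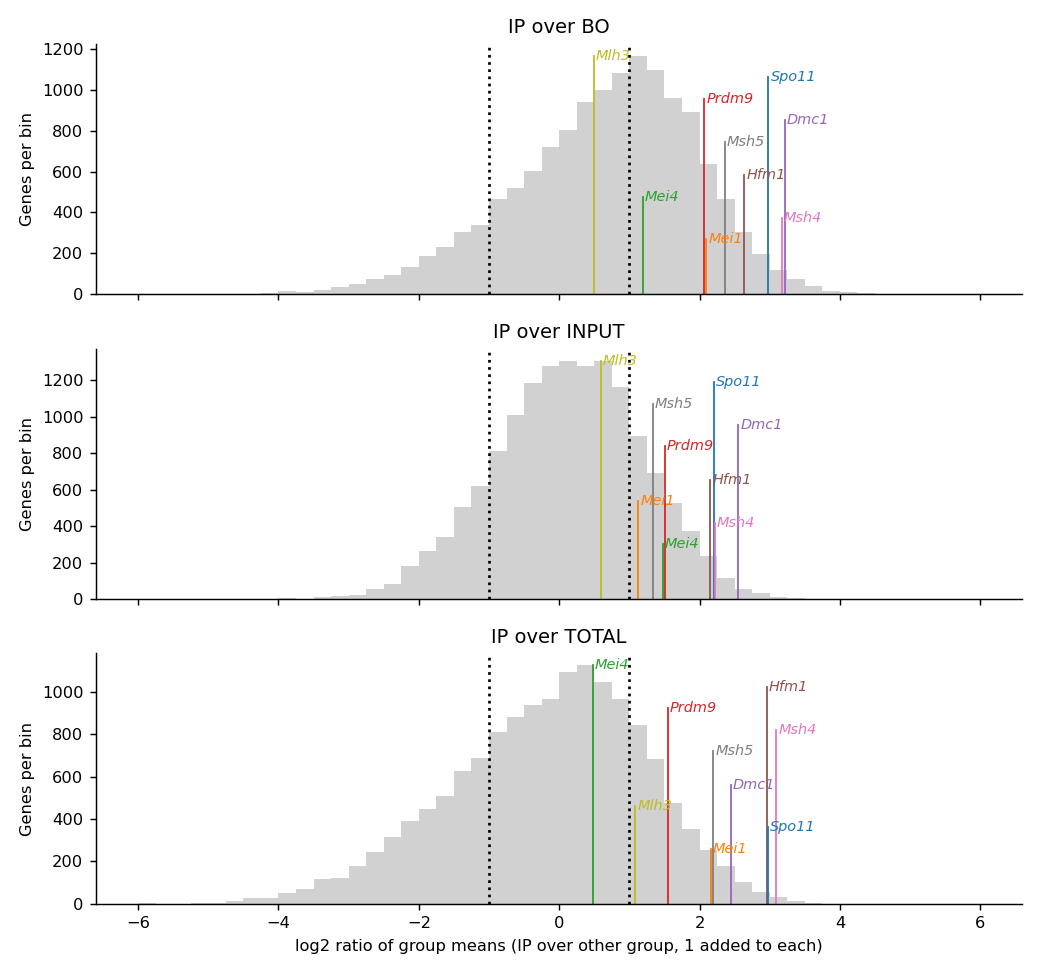
Histograms of the log2 ratio of IP over BO, INPUT and TOTAL for all genes with a mean of at least 10 (grey bars, genes per bin of 0.25), with a vertical line for each member (line heights only separate the labels) and dotted lines at 1 and -1. The whole distribution against BO is shifted to a median of 0.81, and Msh4, Spo11 and Hfm1 lie in the far right of the distribution against TOTAL.

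The ratio of IP to TOTAL can be split into the step from extract to sucrose fractions and the step from fractions to precipitate, since it is the sum of log2 INPUT over TOTAL and log2 IP over INPUT. INPUT and TOTAL share no table, so the first term was taken through the IP mean of each table, as the ratio of IP to TOTAL less that of IP to INPUT. In the first step 5 genes stood well above the median gene, which was at -0.14 over 14280 genes. These were Mei1 at 1.03, Msh4 at 0.88, Msh5 at 0.86, Hfm1 at 0.81 and Spo11 at 0.77, with Mlh3 next at 0.49. Prdm9 at 0.05 and Dmc1 at -0.11 had values near 0 in this term, so their ratios to TOTAL lay almost wholly in the step from INPUT to IP. Mei4 was the only member well below the median gene in the first step, at -0.99, and its ratio of 0.48 to TOTAL combined that value with 1.47 in the second. For Mei1 the shares were 1.03 in the first step and 1.13 in the second.

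**Figure D3:**
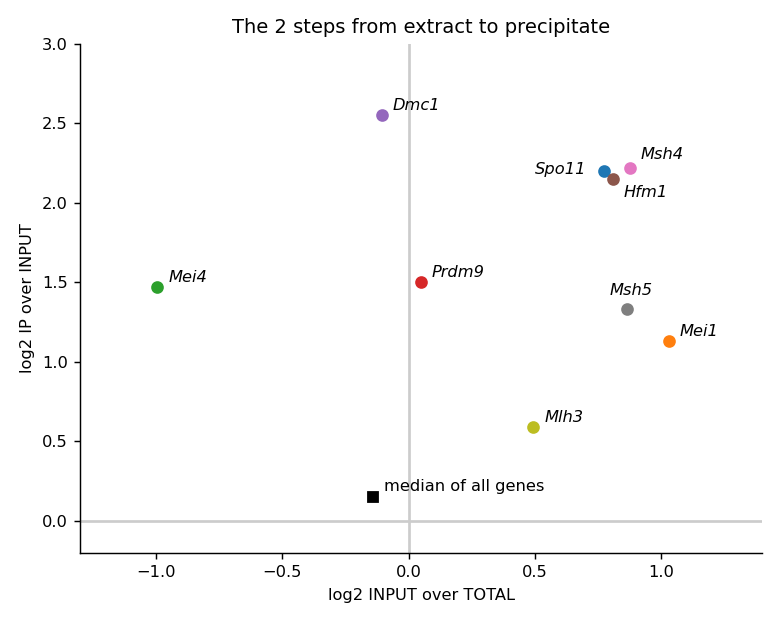
Each member by its log2 INPUT over TOTAL (horizontal) and log2 IP over INPUT (vertical), with the black square for the median of all genes. Spo11, Hfm1 and Msh4 lie close together at the upper right, Dmc1 is highest near 0 on the horizontal axis, and Mei4 lies alone at the left.

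Beads without antibody were compared with INPUT to see how the members stood on bare beads. Taken through the IP means, log2 BO over INPUT was -0.55 for the median of 13578 genes. For Spo11 it was -0.78, for Dmc1 -0.66, for Prdm9 -0.57 and for Hfm1 -0.48. Mei1 at -0.96, Msh4 at -0.95 and Msh5 at -1.02 were lower. Over all genes the members lay between percentiles 32.45 and 75.95 of this ratio. Mlh3 at 0.10 and Mei4 at 0.28 were the highest. Mlh3 and Mei4 also had the lowest ratios of IP to BO, which raises this value by construction, so it is no separate observation.

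Per kilobase of the longest annotated transcript, the IP levels in the TOTAL table ran from 47.6 normalized counts per kb for Mei4 to 3410 for Dmc1. Hfm1 followed Dmc1 with 2570, then Msh4 with 968, Prdm9 with 553, Msh5 with 549, Spo11 with 441, Mei1 with 439 and Mlh3 with 278. Prdm9 and Msh5, and likewise Spo11 and Mei1, were too close to order. In TOTAL itself Dmc1 at 625 and Hfm1 at 330 again led, then Prdm9 at 189, Mlh3 at 131, Msh5 at 119, Msh4 at 113, Mei1 at 98.1, Spo11 at 55.9 and Mei4 at 34.1 normalized counts per kb, and from Mlh3 to Mei1 neighbours were close. In these bulk libraries, few expressing cells and little RNA per cell cannot be told apart.

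The order depends on the transcript length taken. The longest Spo11 transcript, of 3619 bases, keeps an intron. With the longest coding transcript, a choice made after seeing the data, Spo11 stood at 934 per kb in IP and 118 in TOTAL, and ranked 4 of the 9 members in IP rather than 6. With the median transcript length the members' median level in IP was 1060 per kb, against 549 with the longest. It also turned the order at the top, with Hfm1 at 6570 and Dmc1 at 4270 per kb in IP and at 845 and 782 in TOTAL, and put Prdm9 at 1770 above Msh4 at 1210 in IP.

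The members' mRNAs differed widely in features that the choice by name did not use. The longest coding transcript ran from 1709 bases for Spo11 to 5463 for Mlh3. Adenine made up 28.9% to 32.4% of the bases in Spo11, Mei4, Prdm9, Dmc1, Hfm1, Msh4 and Mlh3, each above the 83rd percentile of the genes tested, and 21.0% in Mei1 and 21.5% in Msh5, at percentiles 12.1 and 15.6. Mei1 and Msh5, with the highest GC content at 55.7% and 55.6%, had the lowest log2 ratios to INPUT after Mlh3. Across 13308 genes, Spearman's rho of adenine content with the log2 ratio to INPUT was 0.313, against 0.194 for the ratio to TOTAL over 13529 genes and -0.105 for that to BO over 12681 genes. Genes share libraries and are not independent, so these are descriptions.

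Length moved with the ratio to TOTAL across genes. The median log2 ratio was -1.68 in the tenth of genes with the shortest coding transcripts and 0.79 in the tenth with the longest, and Spearman's rho was 0.433. Against BO rho was -0.413 and against INPUT 0.046. Spo11 stood high for its length: none of the 2365 genes with a coding transcript no longer than that of Spo11, itself included, had a higher ratio to TOTAL. Of the 3920 genes no longer than Dmc1, 27 had a higher ratio, and of the 7154 no longer than Msh4, 15 did. For Mei4, 1031 of 5263 did, and for Mlh3, 1685 of 11121. The part of length in the members' ratios was not tested.

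**Figure D4:**
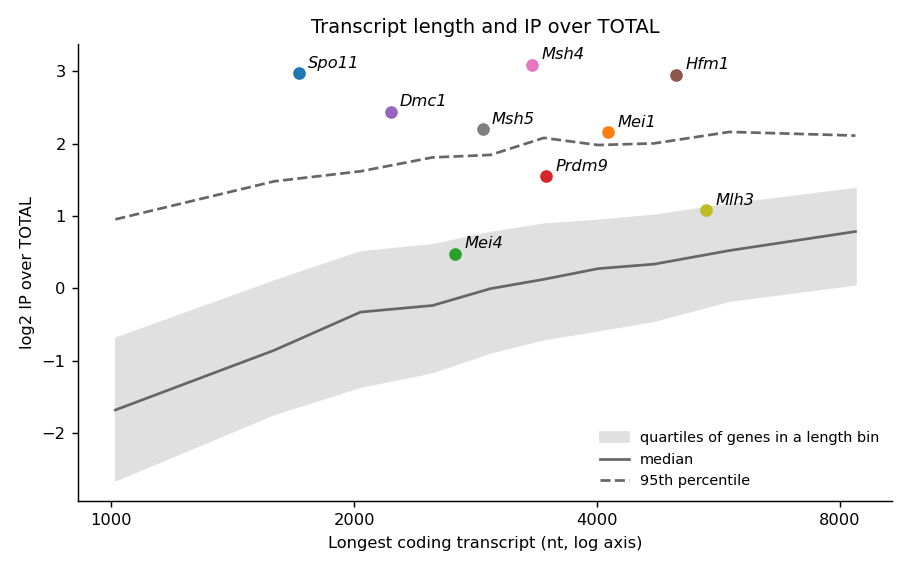
log2 IP over TOTAL against the longest coding transcript (log axis). The grey band runs from the lower to the upper quartile of the genes in each of 10 length bins, the solid line is the median and the dashed line the 95th percentile. Spo11, Dmc1, Msh4, Hfm1, Msh5 and Mei1 lie above the dashed line, Prdm9 between the band and that line, and Mei4 and Mlh3 within the band.

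The rest of the recombination pathway was described by a list of 59 genes, of which 54 were found in the tables by their present or an older symbol. All 54 had means of at least 10. Against BO 45 of them passed a log2 ratio of 1 upward and 0 passed -1 downward, against INPUT 35 and 0, and against TOTAL 35 and 2, where 43.9%, 20.5% and 20.4% of all genes passed upward. Centred on the median gene, 28 passed upward against BO, 29 against INPUT and 35 against TOTAL, and scaled to the sum of gene means 36, 18 and 23. Downward, the counts were 1, 0 and 2 when centred, and 0, 1 and 5 by the sum of gene means. Of all genes, 18.3%, 16.5% and 21.1% passed upward when centred, and 34.1%, 9.05% and 9.73% by the sum of gene means. The list's median log2 ratio was 1.89, 1.19 and 1.42 in these comparisons, below the members' median in each. Of the strand-exchange genes, 15 of 22 passed upward against TOTAL, as did 4 of 8 break-formation genes, 4 of 6 end-processing genes, 3 of 5 crossover genes and 9 of 13 resolution genes.

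The highest of these genes against TOTAL were Rad51ap2, at a log2 ratio of 3.21, and Mcmdc2 at 2.99, which belongs to the MCM helicase family and is needed for strand exchange. Rad51ap2 was the only one of these above Msh4. The lowest with a mean of at least 100 were Rpa3, the smallest subunit of the single-strand DNA binding complex RPA, at -1.06 and Sfr1 at -0.86. Rpa3 and Sfr1 nevertheless had log2 ratios of 0.80 and 1.04 to INPUT.

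The members of the MutS and MutL families were compared with paralogs, related genes that act in mismatch repair. Msh4 exceeded Msh3, which encodes a mismatch-recognizing subunit, in log2 ratio by 1.91 against BO, 1.46 against INPUT and 2.16 against TOTAL, with counting errors of at most 0.083, 0.051 and 0.06. Msh5 exceeded Msh3 by 1.10 against BO, 0.58 against INPUT and 1.27 against TOTAL. Msh6, another mismatch-recognizing subunit, had the highest ratio to TOTAL of the paralogs at 1.58, and was there below Msh4 by 1.52 and below Msh5 by 0.62. Against INPUT Msh6 stood at 0.97, Msh4 at 2.22 and Msh5 at 1.33. Mlh3 did not stand above every paralog: against TOTAL it was at 1.08, with Pms1 at 0.54 and Pms2 at 1.28. Against BO Mlh3 was at 0.49, with Pms1 at 1.36 and Pms2 at 1.06. Against INPUT Mlh3 exceeded Pms1 by 0.034, with a counting interval from -0.099 to 0.167. Of the 7 paralogs, 2 passed a log2 ratio of 1 against TOTAL, 1 against INPUT and 6 against BO, and centred on the median gene 2, 0 and 1. The shares of all genes were 20.4%, 20.5% and 43.9% in the same order, and 21.1%, 16.5% and 18.3% when centred.

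**Figure D5:**
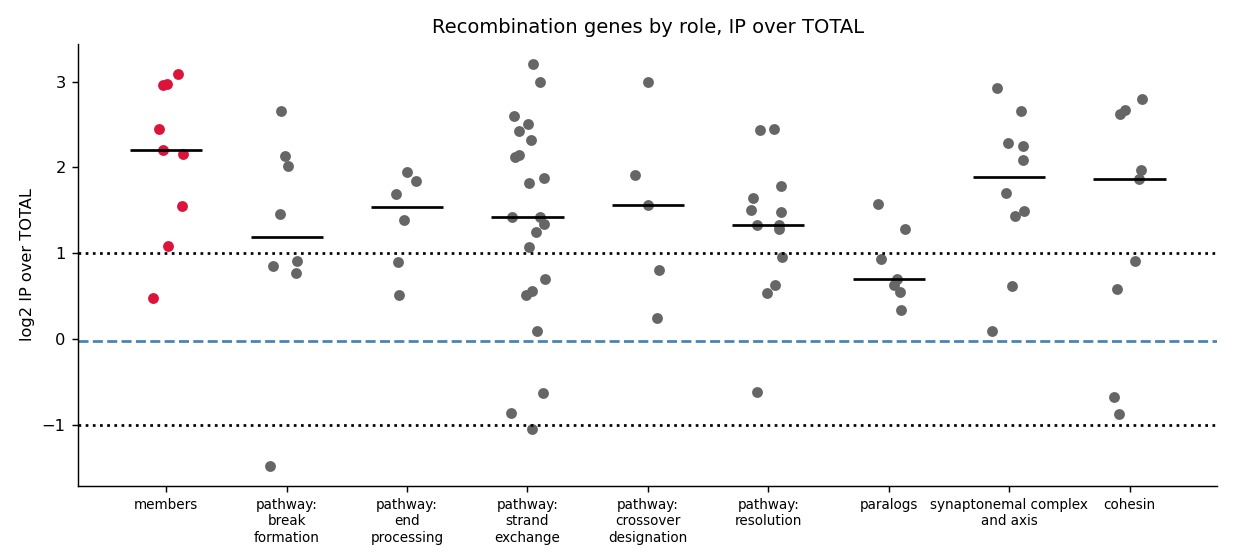
log2 IP over TOTAL for the 9 members (red) and, in grey, the other recombination genes by role, the paralogs, the synaptonemal complex and axis genes and the cohesin genes (1 point a gene, black bar the median). The dashed line is the median of all genes and dotted lines mark 1 and -1. The members' median of 2.20 is the highest bar, and that of the paralogs the lowest.

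Other meiotic chromosome genes were counted in the same way. Of 10 genes of the synaptonemal complex and the chromosome axis, 8 passed a log2 ratio of 1 against TOTAL, 10 against INPUT and 9 against BO, with medians of 1.89, 1.97 and 3.36. By the sum of gene means 6, 8 and 9 passed. The medians against BO and INPUT were above those of the recombination genes, and that against TOTAL was below. Of 9 cohesin genes, 5, 6 and 7 passed in the same order (5, 6 and 5 when centred on the median gene, and 5, 3 and 7 by the sum of gene means), with medians of 1.86, 1.32 and 1.99. Their log2 ratios to TOTAL ran from -0.88 to 2.80, where those of the members ran from 0.48 to 3.09. Of all genes, 20.4% passed upward against TOTAL, 20.5% against INPUT and 43.9% against BO. Centred on the median gene these shares were 21.1%, 16.5% and 18.3%, and by the sum of gene means 9.73%, 9.05% and 34.1%.

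Counts for markers of the cell types in the testis differed between the types and between the comparisons. All 7 spermatocyte markers, a list that holds Spo11 and Dmc1, were more than 2-fold higher in IP than in BO and than in INPUT, and 6 were so against TOTAL, where Pgk2 stood at -0.16. Their summed mean was 18328 in TOTAL and 114510 in IP, of which Sycp1 alone held 9433 and 71553. All 6 Leydig cell markers were lower in IP than in TOTAL by more than 2-fold, with a summed mean of 78927 in TOTAL and 15393 in IP, while against BO 2 were higher and 1 lower, and 0 higher and 1 lower once centred on the median gene. For Sertoli cells 4 of 6 markers were lower against TOTAL, with a summed mean of 75027 in TOTAL and 24520 in IP, of which Clu alone held 66084 and 20786. Against BO, 2 of the 6 were lower and 0 higher. For macrophages 4 of 6 were lower against TOTAL (summed mean 9868 and 4908), while against BO 3 of the 5 with a mean of at least 10 were higher and 0 lower, and 0 higher and 1 lower once centred. For spermatogonia 1 of 6 was lower against TOTAL (6504 and 3773), and against BO 1 was higher and 3 lower. Of all genes, 26.2% were lower against TOTAL by this limit, and 11.2% against BO. Upward, 43.9% of all genes passed against BO, 20.5% against INPUT and 20.4% against TOTAL. Centred on the median gene, 18.3% passed upward and 24.1% downward against BO. Scaled to the sum of gene means, 6 of 6 Sertoli, 5 of 6 macrophage and 3 of 6 spermatogonia markers were lower against TOTAL, and 38.1% of all genes. Against INPUT 5 of 6 Leydig, 5 of 6 macrophage, 3 of 6 Sertoli and 1 of 6 spermatogonia markers were lower, and 14.6% of all genes. By the sum of gene means 6, 5, 4 and 4 were lower against INPUT, and 28.3% of all genes. The 6 spermatid markers summed to 140 in TOTAL and 4.67 in IP, and Prm2 was listed at 0 in IP. The part of cell type in the members' ratios was not tested.

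Among 9312 other genes with means of at least 100 in every table, those whose 3 log2 ratios lay closest to the members' medians (Euclidean distance over the 3 comparisons) were Wdr17, Spice1, Mtbp, Col14a1 and Fam161b. Wdr17 was the nearest, at a distance of 0.09 with ratios of 2.31 to BO, 1.50 to INPUT and 2.12 to TOTAL. Fam161b, the last of the 5, was at a distance of 0.191.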

How the data were processed

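RNA was measured by RNA-seq (TruSeq Stranded Total RNA with Ribo-Zero) in 12 libraries, 3 in each of 4 groups taken from the sample labels. Per the submitters' processing notes, the authors used STAR 2.6.0c, mm10 and DESeq2 1.24.0. The deposited signal in the 3 gene tables is the authors' mean of normalized counts per group, scaled within each table. The tables also hold the authors' fold changes, errors and p-values, which were not used. The deposited repeat signal is an upper-quartile normalized count per library, and every value was a whole multiple of 1 step, within 0.1 read, in each library.

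The 4 rows that name no gene (unmapped, multimapping, no feature and ambiguous reads) held 22.1% to 38.6% of the summed means of a group and were left out. Ratios used a pseudocount of 1, and backgrounds used genes with a mean of at least 10. With Python 3.11.15, pandas 2.3.3 and numpy 2.4.6, the worth of 1 read in each library was found from the low group means, of which 100.0% under 1 were sums of such steps within 0.0025, where such sums cover 5.21% to 10.2% of the possible values. Steps ran from 0.209 to 0.502, and set the range of reads and the upper limit of counting error given for a gene. On simulated counts, 100.0% of 200 changed genes among 20981 were recovered in each comparison. The changes were set well past the 2-fold limit, in genes with means of at least 100, with counting noise only. This checks the calculation and cannot show how genes near the limit, a shifted scale or a spread between libraries would fare. The design foresaw no test, since values per library are not given for genes. Named genes are the 9 members, the 2 highest and 2 lowest of the pathway and paralog lists by IP over TOTAL (mean of at least 100), the paralogs, Mael and the 5 genes nearest the members' medians. Outside this rule, Gm24395 and the cell-type markers Pgk2, Sycp1, Clu and Prm2 are named. Some genes that this rule names are not reported here. The members and lists were chosen with earlier results of these data known. Alternatives were 3 scalings, other pseudocounts, filters and transcript lengths. Gene models, lengths and sequences are from GENCODE M21, while the annotation used for the counts is not given in the sources used here. Older symbols were matched through RefSeq and gene-name tables.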

Additional observations from a re-analysis of the deposited data

How the results depend on the processing

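Under the 3 scalings, 68 of 81 single values of a member against BO, INPUT or TOTAL kept their direction and their side of the fold limit and 13 did not. Under the other pseudocounts all 54 did, and a filter cannot change a single ratio. When every group was scaled to the sum of its gene means, the members past the limit against INPUT numbered 4, not 8, and their median log2 ratio was 0.97, not 1.50. There Mei1 stood at 0.60, Msh5 at 0.80, Mei4 at 0.94 and Prdm9 at 0.97. In that scaling Mei4 was at -0.04 and Mlh3 at 0.57 against TOTAL, and Mei4 at 0.90 against BO. Scaled by the upper quartile of gene means, Mei4 stood at 0.38 and Mlh3 at -0.32 against BO, and Mei1 at 0.82 against INPUT. Of all genes, 43.9% passed upward against BO, and 34.1% by the sum of means. With the median transcript length, the members' median level in IP was 1060 per kb. With a mean of at least 100, Mei4 left the comparisons with BO and INPUT. The longest coding transcript, and the sum of gene means for INPUT against TOTAL, were chosen after seeing the data. No replicate could be left out, and no paired analysis was possible because the gene tables hold 1 mean per group.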
